A study of Homo sapiens with 6 samples.

Results

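Genes of the tripartite motif family, named TRIM and a number, were followed in the human pancreatic beta-cell line EndoC-BH5 after cytokine treatment. Members were the rows of the gene table whose symbol is TRIM, a number and at most one letter. The rule matched 74 of 60611 rows, and 72 were protein-coding TRIM genes. The other 2 were not counted as members: TRIM80P, a pseudogene on chromosome 17, and a second row with the symbol TRIM74 whose identifier belongs to the pseudogene STAG3L3 in GENCODE 29. All groups were EndoC-BH5 cells of genotype WT, labelled endocrine pancreas. The cytokine group was 3 libraries of cells given interferon gamma and interleukin 1 beta together, and the vehicle group was 3 libraries of cells given vehicle alone. The design text calls the samples batches, and no label says that they came from separate cultures. P-values therefore measure only how far these libraries differ, which may be technical. A single line stands for the beta cell here, and its cytokine doses and exposure time are not given in the sources used here.

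TRIM proteins are mostly E3 ubiquitin ligases, the enzymes that choose which protein receives ubiquitin. A typical member carries a RING finger that recruits an E2 enzyme, B-box zinc fingers, a coiled coil through which members pair, and a C-terminal domain that binds the target. In the largest subgroup that last domain is PRY-SPRY, and many of its members are interferon-induced and act in antiviral defence. Other subgroups act in chromatin (PHD-bromodomain), on microtubules (COS box), in neurons and muscle (NHL repeats) or at the endoplasmic reticulum (a transmembrane helix). In beta cells, interferon gamma and interleukin 1 beta are used together to mimic the inflammation of type 1 diabetes.

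TRIM21, TRIM22, TRIM69, TRIM25, TRIM56 and TRIM14 were the members most raised in cytokine-treated cells, and TRIM29, TRIM9 and TRIM16 those most lowered. Of the 72 members, 41 passed a filter on low counts and were tested. Among these, 11 were higher (26.8%) and 17 were lower (41.5%), at an adjusted p under 0.05 in edgeR's quasi-likelihood test, and 13 were not called. Of all 17863 genes tested, 28.3% were higher and 28.8% were lower by the same rule. A change of at least 2-fold was reached upward by 6 members, TRIM21, TRIM22, TRIM69, TRIM25, TRIM56 and TRIM14, and downward by TRIM29 alone. The background for changes of that size was 5.96% of genes upward and 4.28% downward. The 3 libraries of one group lay wholly above or below those of the other in 30 of the 41 tested members (73.2%), against a background of 61.0%, and all 28 called members were among the 30. The median log2 fold change was -0.09 over tested members and -0.02 over all genes. Scaling by library size alone moved those medians to -0.30 and -0.22, and gave 9 members higher and 26 lower, so changes below are relative to the composition-scaled values.

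**Figure D1:**
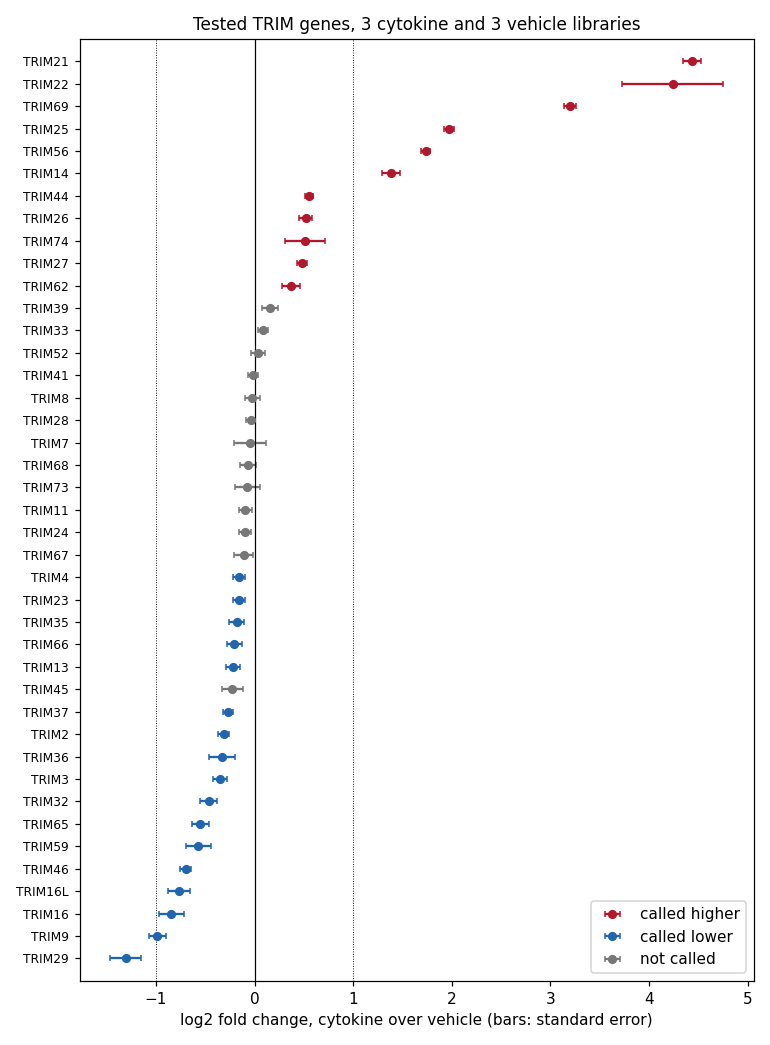
Log2 fold change, cytokine over vehicle, with its standard error for the 41 tested TRIM genes, coloured by call, with dotted lines at a 2-fold change. The 6 largest rises stand apart from the rest above a log2 value of 1, while 1 fall, TRIM29, passes -1.

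Short stretches before or around the start sites of members are shown here because interferon-regulated genes carry known elements there. The letters searched were GAAANNGAAA, the core of the interferon-stimulated response element (ISRE), and TTCNNNGAA, the gamma-activated site (GAS) bound by STAT dimers, plus the kappaB motif of NF-kappaB. Both strands of RefSeq windows from 250 bases before to 50 bases after a start (build GRCh38.p14) were read, and overlapping matches of one motif were merged. A window was held for 56 of the 72 members. A gene with several windows counted once if any of them held a match. The ISRE core occurred in 10 of them (17.9%) and in 4.4% of the 27305 genes in that table. It occurred for 5 of the 9 members called higher with a window, for 2 of the 12 called lower, and for none of the 8 tested and not called. Of the members raised at least 2-fold, 5 had a window and 3 of these held the core. TRIM25 and TRIM56 did not hold it, and TRIM22 had no window. In the following lines capitals mark the ISRE core, read 5′ to 3′ on the gene's own strand, so that TTTC marks a core on the other strand.
TRIM21 (chr11:4393663-4393692, minus strand, core at bases 18 to 33 after the start): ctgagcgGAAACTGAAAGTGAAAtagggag
TRIM69 (chr15:44736456-44736485, plus strand): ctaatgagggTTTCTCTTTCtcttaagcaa
TRIM14 (chr9:98119223-98119322, minus strand): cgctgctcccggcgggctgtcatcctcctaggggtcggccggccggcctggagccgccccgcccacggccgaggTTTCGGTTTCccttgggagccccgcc
TRIM26 (chr6:30213546-30213645, minus strand): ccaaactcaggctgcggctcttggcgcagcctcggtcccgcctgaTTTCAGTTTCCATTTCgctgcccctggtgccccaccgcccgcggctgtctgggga
TRIM44 (chr11:35662675-35662774, plus strand): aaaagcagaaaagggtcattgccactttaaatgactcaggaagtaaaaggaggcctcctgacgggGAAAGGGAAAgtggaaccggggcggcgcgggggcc
TRIM5 (chr11:5685082-5685111, minus strand): atagtttatcTTTCACTTTCctgccctgag
TRIM34 (chr11:5624901-5624930, plus strand): gccccaaaaaTTTCACTTTCatttctcagg
TRIM16 (chr17:15683012-15683041, minus strand): acagaggtaaGAAATAGAAAtaaagggtcc
TRIM2 (chr4:153151936-153151965, plus strand): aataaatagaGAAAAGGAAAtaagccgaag
In TRIM21 and in TRIM26, 2 cores overlap. The printed stretches of TRIM21, TRIM69, TRIM5 and TRIM16 overlap an annotated exon of any gene on either strand, and the whole windows were not checked for this. TRIM16 and TRIM2 are shown because they hold the core and were lower. The tenth member with the core, TRIM64C, had 0 counts in every library and is not printed. The GAS letters occurred for none of the 9 members called higher, for 4 of the 12 called lower, for 12 of all 56 (21.4%) and for 9.4% of the genes in the table. Of those 12 of 56, 7 were not tested. Among these 7, TRIM49 and TRIM49C had identical stretches around their matches, as did TRIM64 and TRIM64B, so the share is not one of independent genes. The kappaB motif occurred for 4 of the 56 members (7.1%), TRIM14, TRIM2, TRIM31 and TRIM46, and for 13.3% of the genes in the table. These matches describe letters in a window and were not tested.

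The 6 members that rose most are described first. TRIM21 (ENSG00000132109, chromosome 11, 4384897 to 4393696, minus strand) is a PRY-SPRY ligase that binds the constant part of antibodies inside the cell and is the autoantigen Ro52. Its level was 86.6, 80.2 and 81.5 CPM, a count scaled for the size and composition of its library, in cytokine libraries, against 3.65, 4.13 and 3.69 CPM in vehicle libraries. Every cytokine library lay far above every vehicle library. The log2 fold change was 4.43 ± 0.09 (SE; adjusted p = 9.4e-26), a 21.6-fold difference.

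TRIM69 (chromosome 15, 44728988 to 44767829), a PRY-SPRY ligase described to restrict vesicular stomatitis virus, had 165, 163 and 163 CPM in cytokine libraries, against 15.4, 18.1 and 18.8 CPM in vehicle libraries. The cytokine libraries differed by little among themselves and did not approach the vehicle libraries. Its log2 fold change was 3.19 ± 0.06 (SE; adjusted p = 2.8e-26), or 9.15-fold.

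TRIM22 (chromosome 11, 5689689 to 5737089), an interferon-induced PRY-SPRY ligase that restricts several viruses, was rare in both groups. It had 28, 19 and 29 counts in cytokine libraries, against 0, 0 and 3 counts in vehicle libraries. In CPM these were 1.86, 1.49 and 2.1 in cytokine libraries, against 0.00, 0.00 and 0.175 in vehicle libraries. The groups did not overlap, but the size of the difference rests on 76 against 3 counts, a depth-adjusted ratio of 20.9 with an exact 95% interval of 6.89 to 104, which covers counting error only. The adjusted p was 4.2e-08, and the fitted log2 value of 4.24 was 7.43 without vehicle replicate 3, which holds all 3 vehicle counts. TRIM22 lies within the span of TRIM5 on the opposite strand, with no exonic bases shared. How the counting treated strand is not given in the sources used here.

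TRIM25 (chromosome 17, 56836387 to 56914080) is the PRY-SPRY ligase best known as a cofactor of the RNA sensor RIG-I. It had 199, 196 and 187 CPM in cytokine libraries, against 51.1, 48.1 and 49.8 CPM in vehicle libraries. The groups stood well apart, with a log2 fold change of 1.97 ± 0.05 (SE; adjusted p = 3.1e-23), or 3.91-fold. The microRNA gene MIR3614, which lies within an exon of TRIM25 on the same strand, had 53, 53 and 64 counts in cytokine libraries, against 9, 10 and 12.5 counts in vehicle libraries. Reads of the host transcript and of this gene cannot be told apart there.

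TRIM56 (chromosome 7, 101085439 to 101097967) has no named C-terminal domain and is described to support responses to cytosolic nucleic acids. Of these 6 members it had the highest CPM, with 225, 225 and 221 CPM in cytokine libraries, against 62.7, 70.3 and 67.6 CPM in vehicle libraries. The groups did not overlap, and the log2 fold change was 1.73 ± 0.05 (SE; adjusted p = 2.5e-22), or 3.33-fold.

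TRIM14 (chromosome 9, 98069275 to 98119212) lacks the RING finger and acts as an adaptor of MAVS, the mitochondrial signalling protein below RIG-I. It had 25.4, 24.7 and 25.6 CPM in cytokine libraries, against 9.37, 8.63 and 10.5 CPM in vehicle libraries. The lowest cytokine library was above every vehicle library, with a log2 fold change of 1.38 ± 0.09 (SE; adjusted p = 9.0e-14). TRIM14 shares exonic bases with NANS on the opposite strand.

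**Figure D2:**
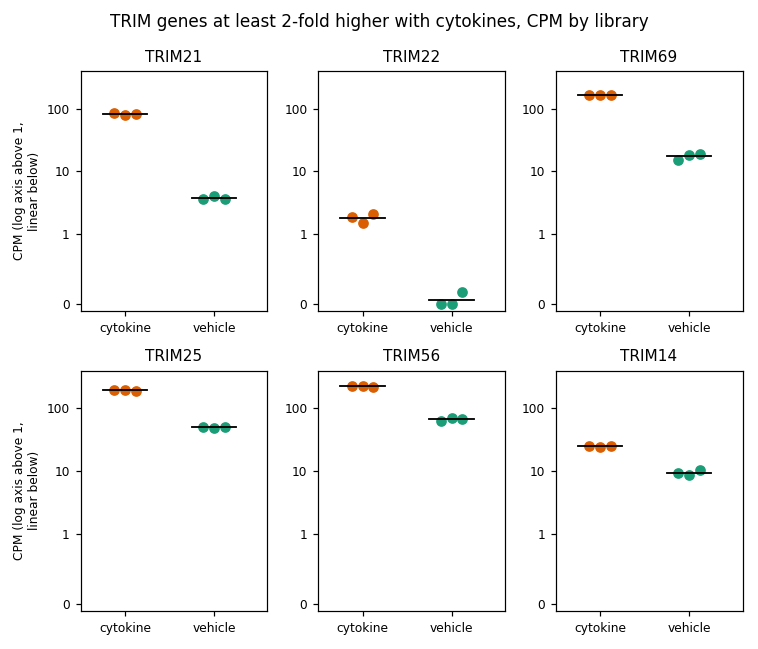
CPM by library for the 6 TRIM genes at least 2-fold higher with cytokines, with cytokine libraries left of vehicle libraries and a bar at the mean of 3. The axis is logarithmic above 1 CPM and linear below, and in no gene do the groups overlap, TRIM22 having 0 CPM in 2 vehicle libraries.

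The share of these 6 members in the family's RNA is given as a description, since they were picked for their rise. Summed over all 72 members, the family had 2259, 2225 and 2216 CPM in cytokine libraries, against 1672, 1670 and 1676 CPM in vehicle libraries. The 6 members made up 30.7% to 31.1% of that sum in cytokine libraries, against 8.51% to 8.99% in vehicle libraries. The other members together had 1535 to 1556 CPM in cytokine libraries, against 1520 to 1530 CPM in vehicle libraries, a remainder that the same choice sets.

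Another 5 members were higher by less than 1.5-fold. TRIM44, which lacks a RING finger and carries a ubiquitin-binding zinc finger, had 282, 288 and 269 CPM in cytokine libraries, against 186, 194 and 192 CPM in vehicle libraries (log2 fold change 0.55 ± 0.04 SE; adjusted p = 6.7e-12). TRIM27, first known as a fusion partner of the receptor RET, had 113, 109 and 114 CPM in cytokine libraries, against 81.8, 83.6 and 77.2 CPM in vehicle libraries (log2 0.48 ± 0.05; adjusted p = 2.2e-09). TRIM26, a PRY-SPRY ligase of the MHC region on chromosome 6, had 80.4, 76.3 and 84.3 CPM in cytokine libraries, against 65.9, 53.3 and 53.2 CPM in vehicle libraries. In all 3 genes the groups did not overlap, although TRIM26 in vehicle replicate 1 was closer to the cytokine libraries than the other vehicle libraries were. Its log2 fold change was 0.52 ± 0.06 (SE; adjusted p = 7.7e-08).

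TRIM62, a PRY-SPRY ligase described in epithelial polarity, averaged 17.7 ± 0.27 CPM in cytokine libraries and 14.1 ± 2.1 CPM in vehicle libraries (SD, n = 3 each; log2 0.37 ± 0.09 SE; adjusted p = 9.7e-04), and lost its call with library size alone as scaling. TRIM74 had 3.13, 3.07 and 3.33 CPM in cytokine libraries, against 2.06, 3.03 and 1.75 CPM in vehicle libraries. Its highest vehicle library came within 0.1 CPM of the cytokine range, and the call (adjusted p = 0.035) was lost in 10 of 15 alternatives. TRIM74 and TRIM73 are near-identical copies whose reads the counting could split between them, and TRIM73 was not called, with 6.59, 5.42 and 6.88 CPM in cytokine libraries, against 6.51, 7.07 and 6.43 CPM in vehicle libraries. The sum of the pair had a log2 fold change of 0.10 (adjusted p = 0.47).

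TRIM5, TRIM6, TRIM34 and TRIM38, also described in interferon or antiviral responses, were too rare to test. TRIM5, whose protein recognises retroviral capsids, had 8.5, 8.5 and 9.5 counts in cytokine libraries, against 2, 1 and 4.5 counts in vehicle libraries. Its sums of 26.5 and 7.5 counts, rounded down to 26 and up to 8, gave a depth-adjusted ratio of 2.68 (exact 95% interval 1.18 to 6.85). This rounding lowers the ratio. With no count filter the adjusted p of TRIM5 was 0.035. TRIM38, which controls TAB adaptor proteins of the interleukin 1 pathway, had 7, 11 and 6 counts in cytokine libraries, against 2, 0 and 6 counts in vehicle libraries. Scaled for depth the TRIM38 groups did not overlap, the ratio of 24 to 8 counts was 2.47 (exact 95% interval 1.08 to 6.37), and with no filter the adjusted p was 0.11. TRIM34, a PRY-SPRY neighbour of TRIM5, had 9 rounded counts in cytokine libraries against 3 in vehicle libraries, and TRIM6 had 0 counts in every cytokine library and at most 0.5 counts in vehicle libraries. At this depth a difference in TRIM34 or TRIM6 was not detectable.

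Levels were compared between genes per kilobase (kb) of exon, with the union of GENCODE 29 exons as the length. In cytokine libraries the order began with TRIM28 at 60.7 ± 1.5 CPM per kb and TRIM21 at 42.9 ± 1.76 (SD, n = 3). TRIM44 (21.4), TRIM25 (20.4) and TRIM56 (20.0) followed. The range of TRIM25 overlapped those of TRIM44 and TRIM56, while TRIM56 did not overlap TRIM26 (18.4), which came next and overlapped TRIM69 (17.7). In vehicle libraries TRIM28 also stood first at 62.4 ± 1.42 CPM per kb, far above TRIM44 at 14.6 ± 0.33. TRIM46 (13.7), TRIM26 (13.1), TRIM37 (12.1) and TRIM2 (11.9) came next in vehicle libraries with ranges that overlapped from one to the next, then TRIM27 (10.1), TRIM4 (10), TRIM33 (8.76) and TRIM23 (8.14). TRIM21 was thus in place 2 in cytokine libraries and in place 30 in vehicle libraries. TRIM69 was in place 7 in cytokine libraries and 31 in vehicle libraries, and TRIM46 was in place 13 in cytokine libraries and 3 in vehicle libraries.

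**Figure D3:**
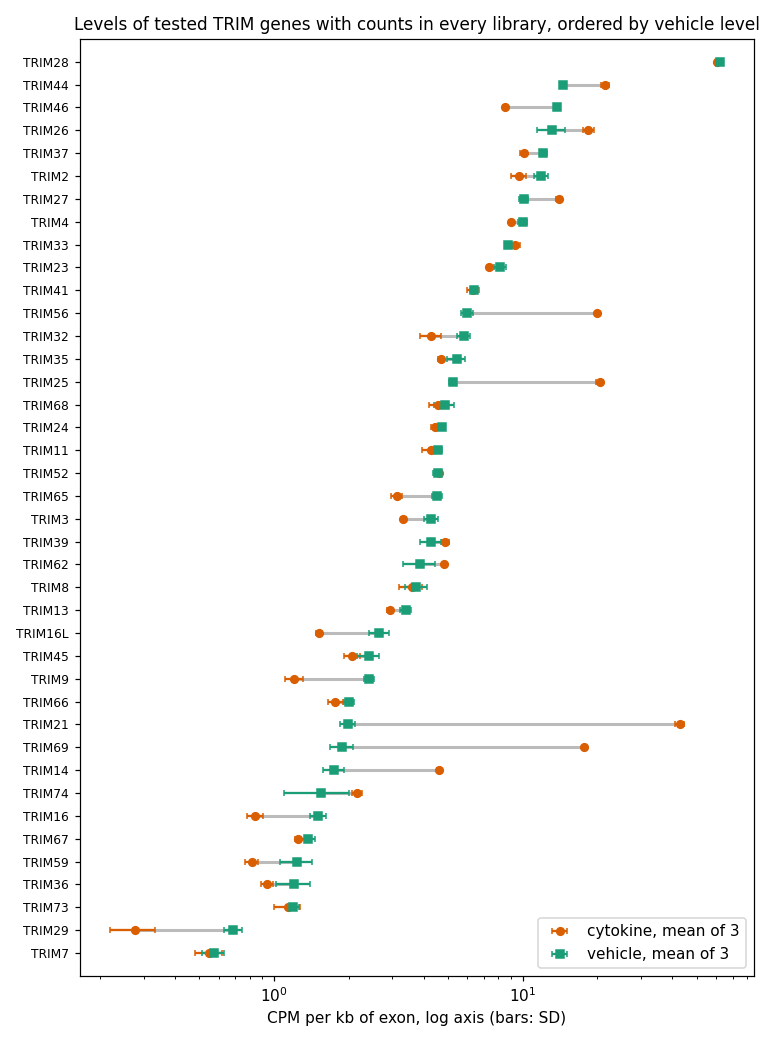
Mean level per kb of exon on a log axis with SD bars, cytokine as circles and vehicle as squares, for the 40 tested TRIM genes with counts in every library, ordered by vehicle level. TRIM21, TRIM69, TRIM25, TRIM56 and TRIM14 move far to the right with cytokines. TRIM29 and TRIM9 move furthest to the left, TRIM46 less so, and TRIM28 stays at the top near 60 CPM per kb.

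Of the 4 PHD-bromodomain members, which act in chromatin, 1 was called. TRIM28, the corepressor KAP1 that binds KRAB zinc-finger proteins, had 245, 239 and 251 CPM in cytokine libraries, against 245, 257 and 253 CPM in vehicle libraries (log2 -0.04 ± 0.04 SE; adjusted p = 0.42). TRIM33, a partner and ligase of SMAD proteins, had 89.5, 93.2 and 85.5 CPM in cytokine libraries, against 84.3, 80.8 and 86.5 CPM in vehicle libraries (adjusted p = 0.14). TRIM24, a coregulator of nuclear receptors, had 42.2, 40.6 and 39.8 CPM in cytokine libraries, against 44.6, 42.0 and 44.4 CPM in vehicle libraries (adjusted p = 0.18). The groups overlapped in all 3. TRIM66 was the one called, lower at 20.8 ± 1.47 CPM in cytokine libraries and 23.7 ± 1.03 CPM in vehicle libraries (SD, n = 3 each; log2 -0.21 ± 0.08 SE; adjusted p = 0.023). The call was lost in 8 of 15 alternatives, and TRIM66 shares exonic bases with the highly counted RPL27A on the opposite strand.

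The microtubule-linked COS box subgroup held 4 tested members, of which 3 fell. TRIM9, a brain-enriched ligase that binds the netrin receptor DCC, had 10.8, 11.8 and 10 CPM in cytokine libraries, against 22.5, 20.6 and 21.6 CPM in vehicle libraries. The cytokine values did not approach the vehicle values, and the log2 fold change was -0.99 ± 0.09 (SE; adjusted p = 1.2e-10). TRIM46, which bundles microtubules at the axon initial segment, had 38.7, 37.6 and 38.8 CPM in cytokine libraries, against 62.9, 61.3 and 62.7 CPM in vehicle libraries (log2 -0.70 ± 0.06 SE; adjusted p = 1.4e-11). Replicates of TRIM46 differed by under 2 CPM within each group.

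TRIM36 had 5.72, 6.05 and 5.43 CPM in cytokine libraries, against 8.57, 6.25 and 7.31 CPM in vehicle libraries (log2 -0.33 ± 0.13; adjusted p = 0.033). Its lowest vehicle library lay just above the cytokine range, and the call was lost in 9 of 15 alternatives. TRIM67, the closest relative of TRIM9, averaged 11.7 ± 0.33 CPM in cytokine libraries and 12.8 ± 0.92 CPM in vehicle libraries and was not called (adjusted p = 0.34). The muscle members of the subgroup, TRIM54, TRIM55 and TRIM63, had at most 10 counts in any library. TRIM55 had 1, 2 and 1 counts in cytokine libraries, against 3, 2 and 10 in vehicle libraries, and with no count filter its adjusted p was 0.046.

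All 3 tested NHL-repeat members fell by small amounts. TRIM32, mutated in a limb-girdle muscular dystrophy, had 15.6, 17.9 and 14.9 CPM in cytokine libraries, against 21.0, 21.3 and 23.5 CPM in vehicle libraries (log2 -0.47 ± 0.08 SE; adjusted p = 2.9e-05). TRIM3 had 22.6, 22.7 and 21.9 CPM in cytokine libraries, against 31.0, 28.7 and 27.3 CPM in vehicle libraries (log2 -0.35 ± 0.07 SE; adjusted p = 1.4e-04). TRIM2, a ligase of neurofilament light chain, had 96.0, 93.2 and 83.9 CPM in cytokine libraries, against 104, 117 and 115 CPM in vehicle libraries. None of the 3 overlapped between groups, and TRIM2 had a log2 fold change of -0.31 ± 0.05 (SE; adjusted p = 1.5e-05).

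Both transmembrane members, which sit in the endoplasmic reticulum, fell. TRIM59 had 5.99, 6.52 and 6.74 CPM in cytokine libraries, against 9.69, 11.2 and 8.31 CPM in vehicle libraries (log2 -0.57 ± 0.13 SE; adjusted p = 3.1e-04). Part of its exons is shared with the read-through gene TRIM59-IFT80, and adding the counts of that gene, an alternative chosen after seeing the data, gave -0.21 (adjusted p = 0.0079). TRIM13 averaged 23.6 ± 0.54 CPM in cytokine libraries and 27.5 ± 1.40 CPM in vehicle libraries (SD, n = 3 each; log2 -0.22 ± 0.07 SE; adjusted p = 0.0085), and its call was lost in 4 of 15 alternatives. TRIM13 and TRIM59 share exonic bases with DLEU2 and SMC4 on the opposite strand, as TRIM37 does with PPM1E and TRIM25 with DGKE.

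The largest fall of the family was in TRIM29, a member without a RING finger that is known from epithelia and DNA damage. It had 2.73, 3.46 and 2.32 CPM in cytokine libraries, against 7.62, 6.43 and 7.08 CPM in vehicle libraries. The groups were well apart, with a log2 fold change of -1.31 ± 0.16 (SE; adjusted p = 4.6e-08).

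TRIM16, which lacks a RING finger and acts at damaged lysosomes, had 4.93, 4.95 and 4.35 CPM in cytokine libraries, against 9.05, 7.81 and 8.77 CPM in vehicle libraries (log2 -0.84 ± 0.13 SE; adjusted p = 2.0e-06). Its near-copy TRIM16L had 6.66, 6.76 and 6.37 CPM in cytokine libraries, against 12.5, 11.5 and 10.5 CPM in vehicle libraries (log2 -0.77 ± 0.11 SE; adjusted p = 1.1e-06). Reads may be split between these copies, so each alone is uncertain, and the sum of both had a log2 fold change of -0.80 (adjusted p = 6.8e-09). TRIM65, a ligase of the RNA sensor MDA5, had 12.2, 11.7 and 13.0 CPM in cytokine libraries, against 17.9, 17.2 and 18.8 CPM in vehicle libraries (log2 -0.55 ± 0.09 SE; adjusted p = 4.1e-06). TRIM65 was thus lower in the same libraries in which the PRY-SPRY members TRIM21, TRIM25 and TRIM69 were higher.

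**Figure D4:**
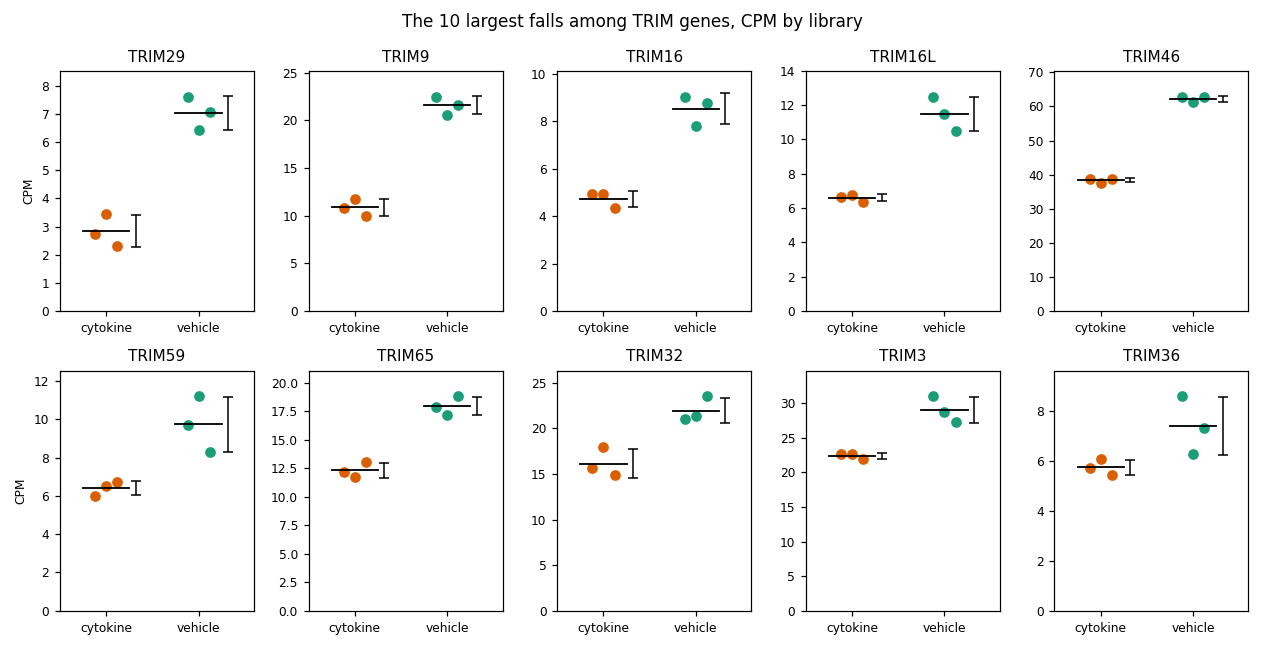
CPM by library for the 10 largest falls past the test, with cytokine libraries left of vehicle libraries, a bar at the mean and a bracket for the SD (n = 3 each). Groups do not overlap in any of the 10, and the gap is narrowest in TRIM36, where the closest libraries have 6.05 CPM with cytokines and 6.25 CPM with vehicle.

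The remaining called members were TRIM37, TRIM23, TRIM4 and TRIM35. TRIM37, a MATH-domain ligase linked to peroxisomes and mulibrey nanism, had 57.0, 55.3 and 53.7 CPM in cytokine libraries, against 64.0, 68.1 and 67.3 CPM in vehicle libraries (log2 -0.27 ± 0.05 SE; adjusted p = 8.6e-05). TRIM23, which carries an ARF-like GTPase domain, had 36.0, 34.6 and 35.3 CPM in cytokine libraries, against 37.0, 41.4 and 39.0 CPM in vehicle libraries (log2 -0.16 ± 0.06 SE; adjusted p = 0.035). TRIM4, a PRY-SPRY ligase described to act on RIG-I, had 44.0, 44.5 and 43.2 CPM in cytokine libraries, against 51.3, 47.4 and 48.7 CPM in vehicle libraries (log2 -0.16 ± 0.06 SE; adjusted p = 0.023). The groups did not overlap in these 3, but the calls of TRIM23 and TRIM4 were lost in 12 and 9 of 15 alternatives. TRIM35 was called lower with an adjusted p that rounds to 0.05 and lost its call in 11 of 15.

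By C-terminal domain, the 18 tested PRY-SPRY members held 8 that rose, 5 that fell and 5 not called, with a median log2 fold change of 0.07. The 7 tested members with no named domain held 3 that rose (TRIM56, TRIM44 and TRIM74), 1 that fell and 3 not called. In the other domain classes no tested member rose, where 28.3% of all tested genes were higher and 28.8% lower. Those that fell were 3 of 4 with a COS box, 3 of 3 with NHL repeats, 1 of 4 with a PHD-bromodomain, 2 of 2 with a transmembrane helix, TRIM37 and TRIM23. The filamin-domain member TRIM45 was not called (adjusted p = 0.081). These classes hold few tested members, the counts are a description, and the difference between classes was not tested. They also leave out family members with other names. Of these, 2 of 5 tested rose, among them the microtubule-bound ligase MID1, and none fell. The tested members not called also included TRIM39, TRIM52, TRIM41, TRIM8, TRIM7, TRIM68 and TRIM11, with log2 fold changes of -0.09 to 0.16.

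**Figure D5:**
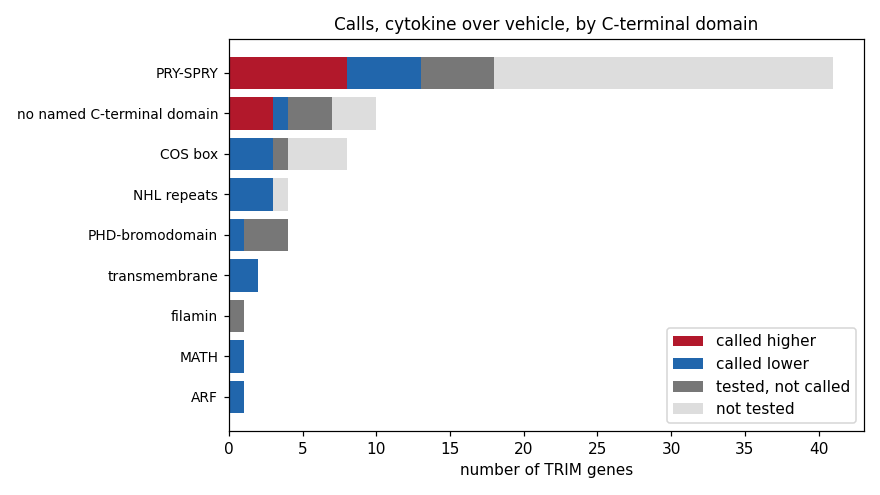
Number of TRIM genes by C-terminal domain, split into those called higher, called lower, tested and not called, and not tested. Calls upward lie in the PRY-SPRY class (8) and the class with no named domain (3), and 23 of the 41 PRY-SPRY genes were not tested.

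Neighbouring members differed in their calls in some clusters and not in others, which was not tested. On chromosome 5 (181193924 to 181261139), TRIM7, TRIM41 and TRIM52 were all tested and not called. On chromosome 11, TRIM21 was higher, while TRIM68 in the same cluster (4384897 to 4608259) averaged 19.6 ± 1.52 CPM in cytokine libraries and 20.8 ± 1.92 CPM in vehicle libraries and was not called. In the cluster of TRIM6, TRIM34, TRIM5 and TRIM22 (chromosome 11, 5596109 to 5938619) only TRIM22 had enough counts for the test. In the 6-gene cluster of the MHC region on chromosome 6 (30102897 to 30343729), TRIM26 was higher, TRIM39 was not called (20.7 ± 0.70 CPM in cytokine libraries and 18.1 ± 1.82 CPM in vehicle libraries; adjusted p = 0.091), and TRIM31, TRIM40, TRIM10 and TRIM15 had at most 2 counts in any library. The 5 members of the cluster at chromosome 11, 89710299 to 90042025, were not tested. Across the family, 31 members were not tested, 7 of them at 0 counts in every library and 23 with at most 5 counts in any library.

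Some members of the family go by other names. Of 8 such genes, 5 were tested, 2 rose and none fell, where 28.3% of all tested genes were higher and 28.8% lower. PML, the organiser of PML nuclear bodies, had 197, 178 and 188 CPM in cytokine libraries, against 36.8, 34.4 and 36.1 CPM in vehicle libraries (log2 2.40 ± 0.05 SE; adjusted p = 2.5e-24). MID1, a microtubule-bound ligase mutated in Opitz syndrome, averaged 29.2 ± 1.29 CPM in cytokine libraries and 18.9 ± 1.03 CPM in vehicle libraries (SD, n = 3 each; log2 0.64 ± 0.07 SE; adjusted p = 2.4e-08). Its paralogue MID2 was not called (adjusted p = 0.30).

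Among 30 partners and targets of TRIM ligases, 29 were tested, 16 rose, 4 fell and 9 were not called, with a median log2 fold change of 0.16, beside 28.3% higher, 28.8% lower and a median of -0.02 over all genes. The RNA sensors that TRIM25 and TRIM65 act on had the largest rises. IFIH1, encoding MDA5, averaged 149 ± 7.29 CPM in cytokine libraries and 14.3 ± 1.32 CPM in vehicle libraries (SD, n = 3 each; log2 3.35 ± 0.07 SE; adjusted p = 9.3e-26). DDX58, encoding RIG-I, averaged 47.7 ± 1.52 CPM in cytokine libraries and 9.84 ± 1.39 CPM in vehicle libraries (log2 2.22 ± 0.08 SE; adjusted p = 2.1e-19). MAVS, the adaptor of both sensors, averaged 187 ± 12.5 CPM in cytokine libraries and 185 ± 4.66 CPM in vehicle libraries and was not called. The largest falls were in the heterochromatin gene CBX1 (log2 -0.27 ± 0.05 SE; adjusted p = 3.9e-05) and the kinase gene MAP3K7 (log2 -0.18 ± 0.06 SE; adjusted p = 0.014).

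Of 32 ubiquitin E1 and E2 enzymes, 31 were tested, 12 rose, 3 fell and 16 were not called, with a median log2 fold change of 0.08, beside the same background. The largest rises were in UBE2Z, at 234 ± 3.79 CPM in cytokine libraries and 95.7 ± 1.74 CPM in vehicle libraries (SD, n = 3 each; log2 1.29 ± 0.04 SE; adjusted p = 4.6e-20), and in UBA6, its dedicated E1 enzyme (log2 1.14 ± 0.05 SE; adjusted p = 3.9e-18). UBE2D3, an E2 that many RING ligases use, was also higher (log2 0.43 ± 0.04 SE; adjusted p = 4.4e-10), while UBE2N, the E2 that builds K63-linked chains, was not called (log2 -0.01 ± 0.05 SE; adjusted p = 0.94). The largest falls were in the E2 genes UBE2T (log2 -0.47 ± 0.09 SE; adjusted p = 5.8e-05) and UBE2C (log2 -0.37 ± 0.09 SE; adjusted p = 5.1e-04). The naming rule did not select UBE2D3 and UBE2N, which were picked with their values known.

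The cells carried beta-cell markers, with all 12 tested. IAPP had the largest rise (log2 1.04 ± 0.04 SE) and PCSK1 the next (log2 0.74 ± 0.04 SE), while G6PC2 (log2 -2.67 ± 0.09 SE) and MAFA (log2 -1.89 ± 0.20 SE) had the largest falls, with 5 higher and 7 lower in all, against that same background. Summed over 14 immune-cell markers the level was 25 to 26.1 CPM in cytokine libraries, against 9.89 to 10.2 CPM in vehicle libraries. CD68 made up most of it, at 21.4 ± 0.78 CPM in cytokine libraries and 5.19 ± 0.42 CPM in vehicle libraries, and 3 of the 14 were tested, with 1 higher. CD3D, CD2 and MS4A1 had 0 counts in every library, and the leukocyte marker PTPRC had at most 4. Over 10 stromal and endothelial markers the sum was 13.4 to 14.3 CPM in cytokine libraries, against 3.49 to 5.32 CPM in vehicle libraries, of which PDGFRB alone was tested and rose (log2 2.01 ± 0.13 SE). Over 8 exocrine and ductal markers the sum was 135 to 145 CPM in cytokine libraries, against 156 to 173 CPM in vehicle libraries, 2 were tested, the ductal keratin gene KRT19 fell (log2 -0.25 ± 0.05 SE; adjusted p = 8.2e-05), and PRSS1 had 0 counts in every library. Of 7 markers of other islet cells, 6 were tested, IRX2 rose (log2 0.63 ± 0.08 SE; adjusted p = 2.1e-07) and GCG, encoding glucagon, fell (log2 -0.79 ± 0.06 SE; adjusted p = 2.1e-11), and the sum was 628 to 663 CPM in cytokine libraries, against 607 to 677 CPM in vehicle libraries. SST made up most of that sum, at 568 ± 20.7 CPM in cytokine libraries and 555 ± 34.4 CPM in vehicle libraries, and was not called. The part of such markers in the TRIM results was not tested. In bulk RNA, fewer cells of a type and less RNA per cell cannot be told apart.

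In the authors' deposited table, 11 of the 41 tested members were higher and 13 were lower at an FDR under 0.05, against 26.7% and 25.6% of the tested genes. All 24 of these members had the same direction in the refit, and none had the opposite one. TRIM4, TRIM23, TRIM35 and TRIM36 were called in the refit only, with FDR values of 0.0827, 0.108, 0.140 and 0.0767 in the authors' deposited table. Among members the refit did not test, TRIM5 (log2 1.51, FDR 0.04) and TRIM55 (log2 -2.07, FDR 0.029) were under 0.05 in the authors' deposited table.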

How the data were processed

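RNA of 3 cytokine and 3 vehicle libraries of EndoC-BH5 cells was sequenced. Per the labels' protocols, total RNA came from a Nucleospin miRNA kit and libraries from a NEBNext Ultra II Directional RNA kit. The submitters' processing notes name cutadapt 2.10, STAR 2.7.5a and HTSeq 0.12.4 and the build GRCh38, with no role or setting. Neither the annotation nor the strand handling is given in the sources used here. For each of 60611 genes and each library, the authors deposited an estimated count, not normalised and partly fractional. They also deposited a log2 fold change and an FDR (an adjusted p-value) per gene, per the file headers, which were used only to count calls beside the refit. The columns headed NT were taken as vehicle, since the others carry the cytokine name.

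Estimated counts were rounded to whole numbers, where the planned design named them as deposited. The filterByExpr function kept 17863 genes, which were scaled with TMM and tested with edgeR 4.0.16 (R 4.3.3) by a robust quasi-likelihood fit on group, with Benjamini-Hochberg adjustment over all tested genes at 0.05. The procedure was first tested on simulated data. The SE is the log2 fold change divided by the square root of F. CPM values divide a count by the TMM-scaled size of the library. Total counts were 13689972 to 16175364 in cytokine libraries and 5871481 to 15894082 in vehicle libraries, so a value near 1 CPM means few counts, fewest in vehicle replicate 1. Gene positions and exon lengths came from GENCODE 29 on GRCh38, and promoter windows from RefSeq on GRCh38.p14. Domain classes and gene lists were written from general knowledge.

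The members and lists were chosen with earlier results of these data known. Members named in full were the 10 largest rises and 10 largest falls among called genes, given no overlap and a mean of 1 CPM or more in the higher group, members described in interferon responses or chromatin, and the 10 highest per kb in vehicle. From each list the 2 largest rises and falls were named. Alternatives were other scalings, DESeq2 1.42.0, other filters and thresholds, each library left out, a replicate block, and counts of copies or read-through genes added.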

Additional observations from a re-analysis of the deposited data

How the results depend on the processing

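Over 619 alternative values for single TRIM genes, 520 kept their direction and side of the threshold, 77 lost the call, 10 gained one and 12 changed sign. TRIM21, TRIM22, TRIM69, TRIM25, TRIM56, TRIM14, TRIM9 and TRIM29 stayed called in the same direction in all 15 alternatives each. Library size alone gave 9 members higher and 26 lower, with 2980 and 8791 of all genes, and turned TRIM39 (-0.042), TRIM33 (-0.11) and TRIM52 (-0.17). The shift of all genes under that scaling is given in the report. DESeq2 gave 11 members lower, both on the filtered genes and with its own filter. Of all genes, it gave 3820 lower on the filtered genes and 3365 lower with its own filter. A test against a 1.5-fold change left 6 members higher and 2 lower, and 1395 genes higher and 949 lower. The other sign changes were in genes not called: TRIM41 at 0.007 with DESeq2's own filter, and TRIM73 at 0.10 with TRIM74 added. With 1 library left out, TRIM41 ranged from -0.046 to 0.026 (above 0 without cytokine replicate 1 or 2 or vehicle replicate 3), TRIM8 from -0.081 to 0.06 (above 0 without cytokine replicate 2 or vehicle replicate 1), TRIM7 from -0.099 to 0.064 (above 0 without cytokine replicate 3) and TRIM73 from -0.125 to 0.021 (above 0 without cytokine replicate 2). The cause was not tested. Leaving out 1 library gave 10 to 11 members higher and 12 to 16 lower. Of all genes, those fits gave 4577 to 5086 higher and 4355 to 4858 lower. TRIM74, TRIM36, TRIM4, TRIM23, TRIM35, TRIM66 and TRIM13 each lost the call in at least 1 of these fits. TRIM74, TRIM36 and TRIM4 lost it without cytokine replicate 1 or 3 or vehicle replicate 1 or 3, TRIM66 without cytokine replicate 1 or 3 or vehicle replicate 3, TRIM13 without vehicle replicate 3, TRIM35 without any cytokine replicate or vehicle replicate 1 or 2, and TRIM23 without any cytokine replicate or vehicle replicate 2 or 3. TRIM33 gained a call without cytokine replicate 3, and TRIM45 without vehicle replicate 2. Same-numbered libraries did not deviate together (correlations 0.01, -0.05 and -0.05). This shows no shared effect of the number but cannot tell whether same-numbered samples were prepared together. The replicate block gave 11 members higher and 16 lower, with 5001 and 5097 of all genes, and TRIM23 lost its call. TRIM34 and TRIM6 stayed below the count filter with TRIM6-TRIM34 added. Depth limits the 31 members not tested.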
